A study of Mus musculus with 6 samples.

Results

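Fatty acids are burned in steps that begin with their release from stored fat and their activation to acyl-CoA. The 36 genes described here encode those steps. They run from lipolysis and activation through the carnitine shuttle to the enzymes that shorten acyl-CoA in mitochondria and peroxisomes, and include a pair of coactivators that raise transcription of such genes. They were chosen by name, and all 36 were among the 25124 genes measured. The measurements came from RAW264.7, a mouse macrophage-like cell line, in a control line that had received a Cas9 plasmid without a guide RNA, as the comparator of an E4BP4 knockout line not analysed here. All cells carried that plasmid history and grew in medium with 25 mM glucose and 10% serum, at fewer than 15 passages. The M2 group received IL-4 at 10 ng/ml, which polarizes macrophages toward the alternatively activated state, and the M0 group received no IL-4, with 3 libraries each. The labels give neither the time of exposure nor whether the control cells were 1 clone.

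Beta-oxidation shortens an acyl-CoA through a dehydrogenase, a hydratase, a second dehydrogenase and a thiolase. Long chains enter mitochondria only as carnitine esters, so the carnitine shuttle is the gate to the mitochondrial pathway, whereas peroxisomes shorten very long and branched chains with an oxidase in place of the first dehydrogenase. In macrophages, IL-4 is known from earlier work in mice to go with more fatty acid oxidation, and the coactivator PGC-1beta is known to take part in it. The measurements here are of mRNA and say nothing of the flux through these enzymes.

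Poly(A) RNA was sequenced from 200 ng of total RNA per library, and levels are given in TPM, a relative transcript abundance that is scaled for library size and for transcript length and so allows levels of different genes to be compared. Reads recovered from the TPM values numbered 15615639 to 19511192 per library. The labels do not say whether the replicates were grown apart, and the p-values below therefore describe the spread among these libraries, which may be technical. A note of re-analysis stands in the title of each M0 library and of no M2 library, so any batch it marks is confounded with IL-4, and the effects of both cannot be told apart. All 9 macrophage markers were detected and summed to 2181 to 2293 TPM in M2 libraries and 2376 to 2593 TPM in M0 libraries. Lyz2 held the largest part of that sum, with a mean of 941 TPM in M2 and 1069 TPM in M0. The markers did not move together. In the test described below, 3 rose in M2 (Adgre1, Fcgr1 and Mertk) and 2 fell (Itgam and Ptprc), against 20.1% and 23.7% of all tested genes. Markers of T, NK and B cells, fibroblasts, epithelium, endothelium, adipocytes and hepatocytes summed to at most 1.06 TPM per cell type and library, with Cd3g and Cd8a at 0 in all 6 libraries. Neutrophil and mast cell markers summed to 4.12 to 5.69 TPM in M2 libraries and 4.597 to 5.85 TPM in M0 libraries. Nearly all of that was S100a8, with a mean of 4.81 TPM in M2 and 5.29 TPM in M0. Mpo, Elane and Cpa3 each had at most 3 reads over the libraries of a group. M2 replicate 3 differed from the other M2 libraries in a trend with transcript length, and M0 replicates 1 and 2 also had such trends in opposite directions. These are trends of deviations from the group mean, so within a group they depend on each other. The values are given after the electron transfer genes.

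Promoters of 3 genes are shown as a description, and no level or test below rests on their sequence. Acsl1 and Acox3 had the highest and the lowest log2 fold change of the 35 tested genes on log2(TPM + 1). Cpt1c nevertheless fell more than Acox3 by the ratio of mean TPM (M2 over M0, 0.539 for Cpt1c and 0.616 for Acox3). The windows below run from 250 bases before to 50 bases after the annotated start, on the plus strand of mm10 (RefSeq, GRCm38.p6) at chr8:46470787-46471086 for Acsl1 and chr5:35582784-35583083 for Acox3. Capitals mark the 50 bases from the start onward. Hadha and Hadhb, which encode both subunits of 1 enzyme, are transcribed away from each other with 272 bases between their starts, so that the Hadhb window, chr5:30155003-30155302 on the plus strand, shares 228 bases with that of Hadha. Capitals in the Hadhb window mark these shared bases.
Acsl1: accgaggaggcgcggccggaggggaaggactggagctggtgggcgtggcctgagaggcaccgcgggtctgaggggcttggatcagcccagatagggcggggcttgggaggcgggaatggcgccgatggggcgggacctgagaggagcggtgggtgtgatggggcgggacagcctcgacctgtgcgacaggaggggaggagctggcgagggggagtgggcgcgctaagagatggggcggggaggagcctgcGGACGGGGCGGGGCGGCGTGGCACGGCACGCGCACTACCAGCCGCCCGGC
Acox3: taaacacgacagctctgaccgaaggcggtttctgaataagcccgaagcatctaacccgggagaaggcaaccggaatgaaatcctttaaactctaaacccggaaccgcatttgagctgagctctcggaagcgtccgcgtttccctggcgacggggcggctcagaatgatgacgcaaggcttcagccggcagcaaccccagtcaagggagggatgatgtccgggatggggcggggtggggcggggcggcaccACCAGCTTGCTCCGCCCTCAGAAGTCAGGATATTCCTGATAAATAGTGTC
Hadhb: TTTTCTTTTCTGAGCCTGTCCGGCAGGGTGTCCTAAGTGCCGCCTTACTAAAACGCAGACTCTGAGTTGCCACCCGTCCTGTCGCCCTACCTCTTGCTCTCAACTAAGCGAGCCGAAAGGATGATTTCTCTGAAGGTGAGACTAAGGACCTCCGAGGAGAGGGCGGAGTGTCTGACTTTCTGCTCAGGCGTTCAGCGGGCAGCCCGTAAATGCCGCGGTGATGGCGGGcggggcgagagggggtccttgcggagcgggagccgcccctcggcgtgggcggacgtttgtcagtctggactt

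Of the 36 genes, 29 had promoter windows in the RefSeq table, 30 windows in all, since Acsl1 has a second one at chr8:46490716-46491015. The Acsl1 window printed above is the one at the start of the gene model in the deposited table. On both strands, the STAT6-type motif (TTC and GAA with 4 bases of any kind between) was found in 0 of these 30 windows and in 6.95% of all 32851 windows of that length. The PPAR-type motif (AGGTCA repeated with 1 base between) and the ERR-type motif TCAAGGTCA were also in 0 of 30, against 0.04% and 0.42% of all windows. The E4BP4-type motif TTANNTAA was in 1 window, that of Acadvl, against 6.0% of all. The NRF1-type motif (GCGCA and GCGC with 1 base between) was in the windows of Acad10, Etfb and Etfdh, against 4.6% of all. Such a match, or its absence in these 300 bases, is a description of the letters and was not tested for any effect.

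Over the 36 genes together, the summed level was 1362, 1418 and 1409 TPM in M2 libraries and 1377, 1427 and 1412 TPM in M0 libraries, and the groups overlapped. The steps did not all follow this sum. Summed coactivator mRNA stood at 133% of the M0 mean in M2 libraries and activation at 108%, while the carnitine shuttle was at 81.7%, peroxisomal oxidation at 80.0% and lipolysis at 83.6%. Acyl-CoA dehydrogenases, the mitochondrial hydratase to thiolase steps and electron transfer lay between 94.8% and 104%. Auxiliary enzymes, a group that holds mitochondrial and peroxisomal ones, stood at 100.4%. These sums weigh abundant genes most and were not tested. In RNA from whole cultures, fewer cells that use a gene and less RNA per cell cannot be told apart.

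**Figure D1:**
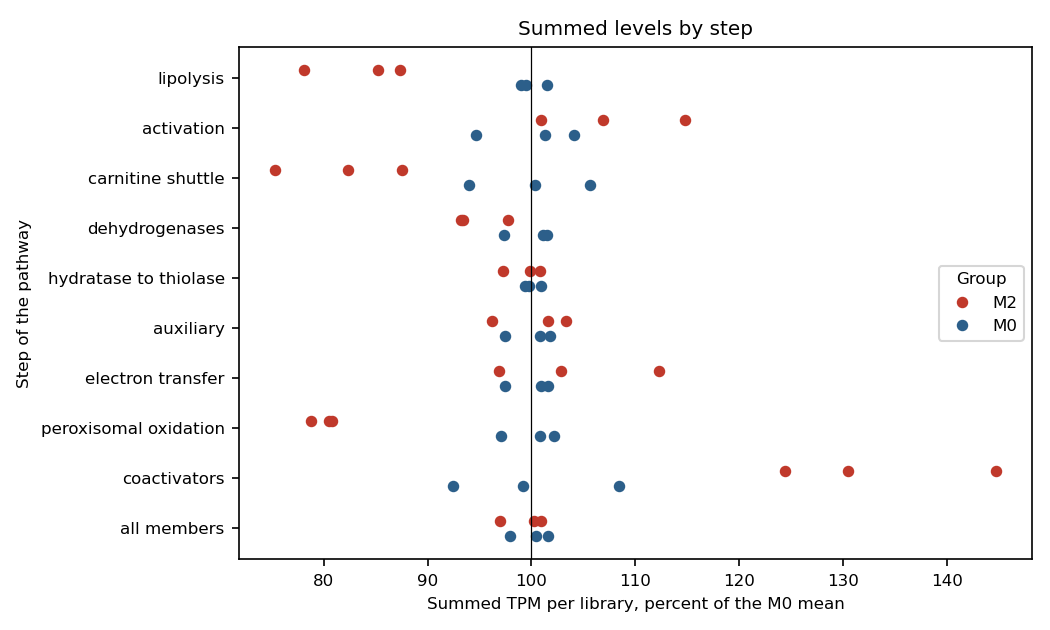
Summed TPM of the genes of each step per library, as percent of the M0 mean of that step, with M2 points above M0 points and 100 marked by a line. M2 points of lipolysis, the carnitine shuttle and peroxisomal oxidation lie left of all M0 points of the same step, those of the coactivators lie right of them, and the sums over all 36 genes overlap.

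Differences were tested with limma on log2(TPM + 1), a scale on which changes of low genes come out smaller than they are, among genes with at least 1 TPM in at least 3 libraries. 35 of the 36 genes passed that filter, Ppargc1a being the one that did not. Among the 35, 4 rose in M2 at an adjusted p under 0.05 (Acsl1, Acsl5, Acat1 and Ppargc1b), where 20.1% of all 11202 tested genes rose. A further 7 fell (Pnpla2, Cpt1c, Cpt2, Acadl, Decr2, Acox3 and Acaa1a), where 23.7% of all tested genes fell, and 24 did not pass. The count that fell is near the share among all genes, and the count that rose is under it. The median log2 fold change was -0.08 over the 35 genes and -0.03 over all tested genes. Ratios of mean TPM, M2 over M0, ran from 0.539 for Cpt1c to 1.48 for Acsl1, and 0 of the 35 reached 2-fold in either direction. M2 libraries lay wholly above M0 libraries for 6 of the 35 and wholly below for 11, against 25.1% and 30.8% of all tested genes. With median-ratio scaling in place of the deposited scale, 6 of the 35 rose and 6 fell, against 23.5% and 22.8% of all tested genes.

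**Figure D2:**
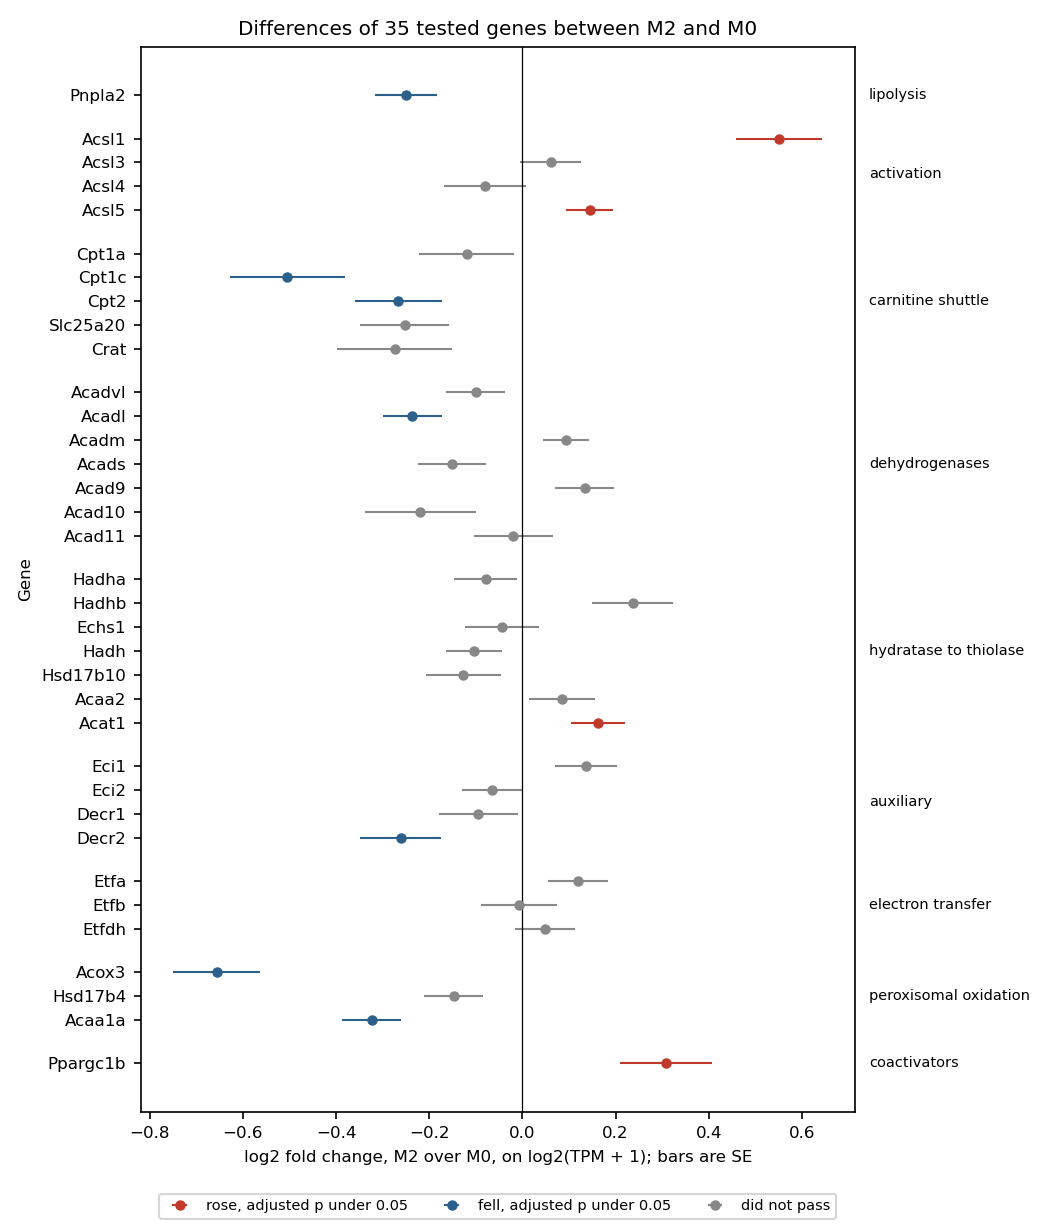
Log2 fold change of M2 over M0 on log2(TPM + 1) for the 35 tested genes, with bars of 1 SE, grouped by step; colours give the 4 genes that rose, the 7 that fell and the 24 that did not pass. Acsl1 stands farthest to the right at 0.55 and Acox3 farthest to the left at -0.66, and all 5 carnitine shuttle genes lie below 0.

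Pnpla2 encodes adipose triglyceride lipase, the enzyme that takes the first fatty acid off stored triglyceride. It stood at 20.8, 21.3 and 19.0 TPM in M2 libraries and 24.7, 24.1 and 24.2 TPM in M0 libraries. Every M2 value lay below every M0 value, and the gene fell 1.197-fold (log2 fold change -0.25, SE 0.066, adjusted p = 0.0147 by limma). The call ended without M0 replicate 1 (adjusted p = 0.0534 by limma), 2 (0.0508) or 3 (0.0547), with log2 fold changes of -0.24 to -0.26.

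Long-chain acyl-CoA synthetases activate fatty acids, and 2 of the 4 rose. Acsl1, the family's main form in liver, fat and heart and one that is induced in inflammatory macrophages in mice, had 45.5, 47.2 and 38.6 TPM in M2 libraries and 27.0, 32.3 and 29.2 TPM in M0 libraries. The groups did not overlap, and the gene rose 1.48-fold (log2 fold change 0.55, SE 0.092, adjusted p = 0.00156 by limma). Acsl5, a form of the endoplasmic reticulum and mitochondria, was the most abundant of the 36 genes with IL-4, at 125, 128 and 125 TPM in M2 libraries and 111, 118 and 113 TPM in M0 libraries. It rose 1.11-fold with groups apart (log2 fold change 0.14, SE 0.050, adjusted p = 0.0438 by limma). That call ended without M2 replicate 1 (adjusted p = 0.0822 by limma), M2 replicate 2 (0.106), M0 replicate 1 (0.133), M0 replicate 2 (0.0849) or M0 replicate 3 (0.140).

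The other two synthetases did not pass. Acsl4, which prefers arachidonic acid, had 98.2, 112 and 89.1 TPM in M2 libraries and 96.5, 111 and 108 TPM in M0 libraries (log2 fold change -0.08, 95% interval -0.28 to 0.12). Acsl3, which sits on lipid droplets and whose span overlaps Utp14b on the same strand, had 71.3, 78.3 and 68.3 TPM in M2 libraries and 66.4, 70.6 and 71.7 TPM in M0 libraries (log2 fold change 0.06, 95% interval -0.09 to 0.21). Both pairs of groups overlapped. Acsl1 made up 12.8% ± 0.683 of the summed TPM of the 4 synthetases in M2 libraries and 9.27% ± 0.422 in M0 libraries (SD, n = 3 each), and Acsl4 29.1% ± 1.40 in M2 libraries and 33.0% ± 0.817 in M0 libraries. The ratio of Acsl1 to Acsl4 was 0.463, 0.424 and 0.433 in M2 libraries and 0.280, 0.292 and 0.271 in M0 libraries, and these did not overlap. The exact two-sided permutation test gave p = 0.1, the smallest that 3 against 3 libraries allow (0.125 adjusted over 5 ratios chosen after the values were seen).

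All 5 genes of the carnitine shuttle had a lower mean in M2, and 2 of them passed, where 6027 of all 11202 tested genes had a log2 fold change below 0 and 23.7% fell. Cpt1a, whose product loads long-chain acyl groups onto carnitine at the outer membrane and is the usual control point of the pathway, had 6.27, 5.71 and 4.89 TPM in M2 libraries and 6.53, 6.23 and 5.77 TPM in M0 libraries. The groups overlapped, and it did not pass (log2 fold change -0.12, 95% interval -0.35 to 0.11, adjusted p = 0.369 by limma). Cpt2, which moves the acyl group back to CoA inside the mitochondrion, had 9.99, 9.10 and 8.46 TPM in M2 libraries and 10.3, 12.3 and 11.2 TPM in M0 libraries. It fell 1.23-fold with groups apart (log2 fold change -0.27, SE 0.094, adjusted p = 0.0454 by limma). The call on Cpt2 ended without M2 replicate 2 (adjusted p = 0.0933 by limma), M2 replicate 3 (0.0637), M0 replicate 2 (0.179) or M0 replicate 3 (0.115).

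Cpt1c, a form of neurons in the endoplasmic reticulum with little transferase activity, had 1.07, 1.055 and 0.830 TPM in M2 libraries and 1.74, 2.21 and 1.52 TPM in M0 libraries. The groups did not overlap, and the gene fell 1.85-fold by the ratio of means (log2 fold change -0.51, SE 0.123, adjusted p = 0.0102 by limma). These levels rest on 130 reads over the M2 libraries and 225 over the M0 libraries. Slc25a20, the carrier that exchanges acylcarnitine for carnitine across the inner membrane, had 5.69, 6.66 and 6.76 TPM in M2 libraries and 8.02, 8.22 and 7.09 TPM in M0 libraries. Its groups lay apart without a pass (adjusted p = 0.0606 by limma), and it passed without M2 replicate 3 (adjusted p = 0.0273, log2 fold change -0.29). Crat, which makes acetylcarnitine, had 6.75, 5.48 and 4.67 TPM in M2 libraries and 7.56, 6.96 and 6.38 TPM in M0 libraries, with overlap. It did not pass (adjusted p = 0.103 by limma), but did without M2 replicate 1 (adjusted p = 0.0284, log2 fold change -0.39).

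**Figure D3:**
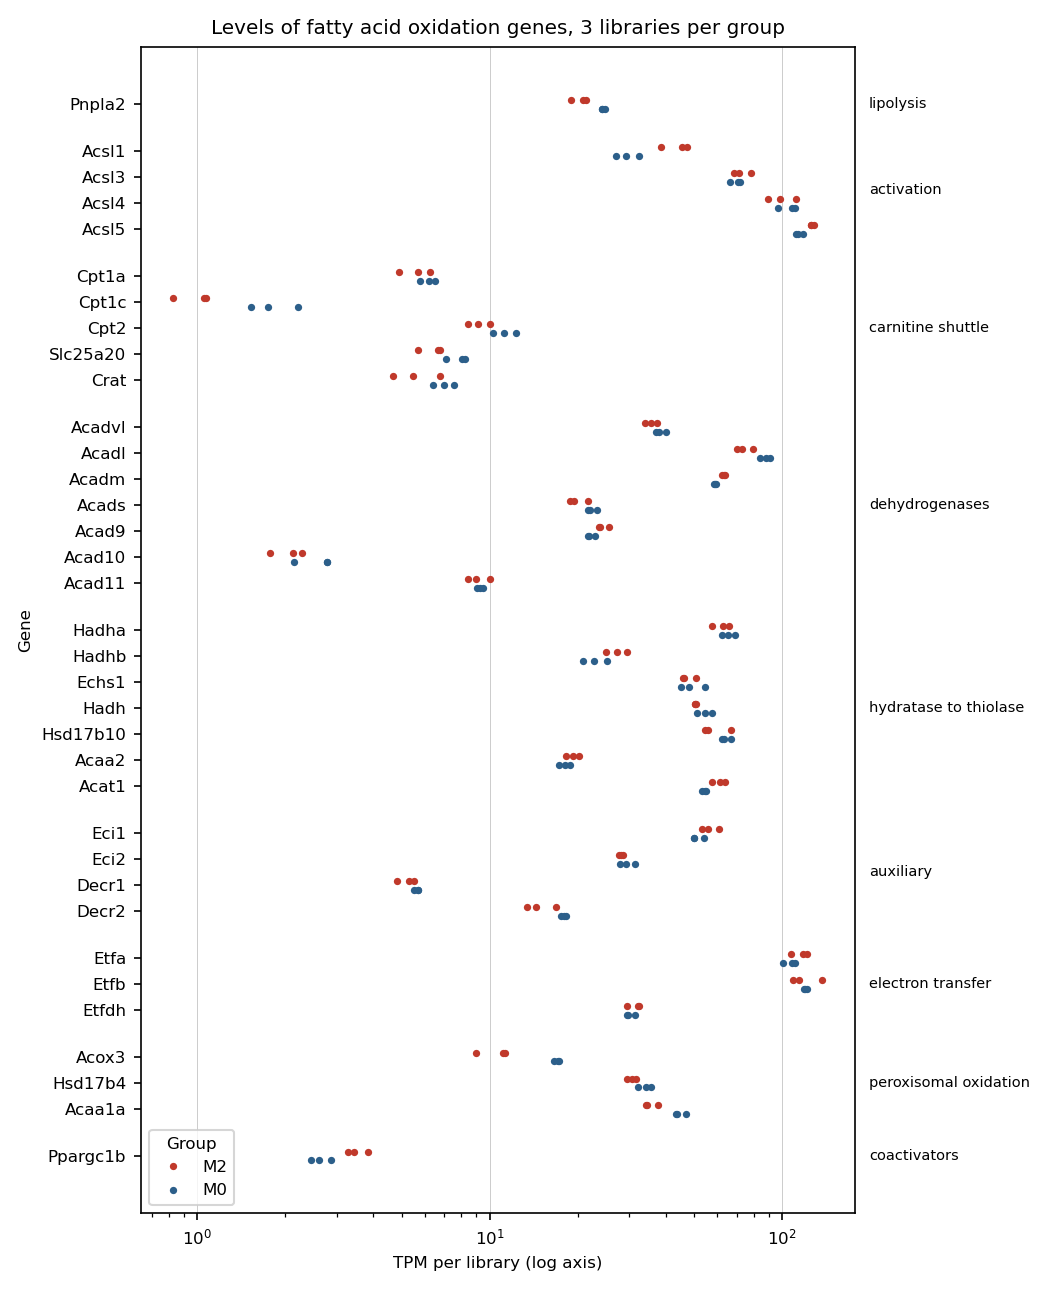
TPM per library on a log axis for 35 of the 36 genes, grouped by step, with M2 points above M0 points for each gene; Ppargc1a, which has a library at 0, is not drawn. Carnitine shuttle genes lie between 0.830 and 12.3 TPM, left of most other mitochondrial genes in both groups.

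Shuttle genes were low in level beside those they supply. Their 5 mRNAs together held 27.8 ± 2.08 TPM in M2 and 34.0 ± 1.998 TPM in M0 (SD, n = 3 each), while the 4 synthetases before them held 342 ± 22.2 TPM in M2 and 318 ± 15.5 TPM in M0. The 7 acyl-CoA dehydrogenases held 229 ± 6.15 TPM in M2 and 241 ± 5.62 TPM in M0. The muscle form Cpt1b, counted among the other genes of the pathway, lay under the filter with 68 reads over the M2 libraries and 75 over the M0 libraries.

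Acyl-CoA dehydrogenases carry out the first oxidation, each on its own range of chain lengths, and 1 of the 7 passed. Acadl, the long-chain enzyme, was the most abundant of the family in both groups, with 70.3, 72.9 and 79.7 TPM in M2 libraries and 84.1, 88.3 and 90.5 TPM in M0 libraries. It fell 1.18-fold with groups apart (log2 fold change -0.24, SE 0.063, adjusted p = 0.0150 by limma). The call ended without M2 replicate 1 (adjusted p = 0.0516 by limma), M0 replicate 2 (0.0570) or M0 replicate 3 (0.0693), and with median-ratio scaling (0.0556).

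Acadm, the medium-chain enzyme, was the next in level and went the other way without a pass, with 63.9, 62.0 and 63.0 TPM in M2 libraries and 58.6, 59.5 and 58.7 TPM in M0 libraries. These groups did not overlap, yet the difference was 1.07-fold (log2 fold change 0.09, 95% interval -0.02 to 0.21, adjusted p = 0.160 by limma). Acad9, which is also an assembly factor of respiratory complex I, had 23.9, 25.6 and 23.6 TPM in M2 libraries and 21.6, 21.9 and 22.9 TPM in M0 libraries. It did not pass (adjusted p = 0.120 by limma), but did with median-ratio scaling (adjusted p = 0.0372, log2 fold change 0.16). The remaining 4 of the family did not pass either. Acadvl, the very long-chain enzyme, averaged 35.7 ± 1.78 TPM in M2 and 38.3 ± 1.64 TPM in M0, and Acads, the short-chain one, 20.02 ± 1.48 TPM in M2 and 22.3 ± 0.834 TPM in M0 (SD, n = 3 each). Without M2 replicate 3, Acads passed (log2 fold change -0.21, adjusted p = 0.0167 by limma). Acad10 and Acad11, later additions to the family, averaged 2.06 ± 0.265 and 9.15 ± 0.825 TPM in M2, and 2.57 ± 0.374 and 9.26 ± 0.214 TPM in M0 (SD, n = 3 each).

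Hadha and Hadhb encode the alpha and beta subunits of the trifunctional protein, which carries out the last reactions of a round on long chains. Their promoter windows overlap, as shown above. Hadha had 65.7, 62.5 and 57.6 TPM in M2 libraries and 62.4, 68.9 and 65.1 TPM in M0 libraries, with overlap (log2 fold change -0.08, 95% interval -0.23 to 0.07). Hadhb had 27.1, 29.5 and 25.0 TPM in M2 libraries and 25.1, 22.8 and 20.9 TPM in M0 libraries, where M2 replicate 3 and M0 replicate 1 met (log2 fold change 0.24, 95% interval 0.04 to 0.43, adjusted p = 0.0539 by limma). Hadhb thus missed the threshold, and it passed without M2 replicate 3 (log2 fold change 0.29, adjusted p = 0.0147 by limma) or M0 replicate 1 (0.30, adjusted p = 0.0385), and in all under 7 of 14 alternatives. The ratio of Hadhb to Hadha was 0.413, 0.471 and 0.434 in M2 libraries and 0.403, 0.331 and 0.321 in M0 libraries, without overlap. The exact two-sided permutation test of that ratio gave p = 0.1, the smallest possible (0.125 adjusted over the 5 ratios).

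Among the other enzymes of the round, Acat1 passed. It encodes the mitochondrial thiolase that splits acetoacetyl-CoA and also serves ketone body and isoleucine breakdown. Acat1 had 57.4, 63.6 and 61.2 TPM in M2 libraries and 53.4, 54.3 and 54.7 TPM in M0 libraries. All M2 values were higher, and it rose 1.12-fold (log2 fold change 0.16, SE 0.058, adjusted p = 0.0480 by limma). The call ended without M2 replicate 2 (adjusted p = 0.142 by limma), M0 replicate 1 (0.128), M0 replicate 2 (0.129) or M0 replicate 3 (0.116). Echs1, the short-chain hydratase, and Hadh, the matching dehydrogenase, averaged 47.6 ± 2.89 and 50.5 ± 0.263 TPM in M2, and 49.2 ± 4.80 and 54.4 ± 3.30 TPM in M0 (SD, n = 3 each). Neither passed, though the groups of Hadh lay apart. Hsd17b10, a dehydrogenase that is also a subunit of mitochondrial RNase P, had 54.3, 55.7 and 66.6 TPM in M2 libraries and 66.9, 63.2 and 62.2 TPM in M0 libraries. It did not pass with M2 replicate 3, and without it did (log2 fold change -0.22, adjusted p = 0.00829 by limma).

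Of the general thiolases, the peroxisomal one passed and the mitochondrial one did not. Acaa2, the mitochondrial thiolase, had 18.2, 20.1 and 19.3 TPM in M2 libraries and 18.1, 17.3 and 18.8 TPM in M0 libraries, with overlap (log2 fold change 0.08, adjusted p = 0.351 by limma). Acaa1a, the peroxisomal one, had 34.4, 34.2 and 37.6 TPM in M2 libraries and 43.3, 43.7 and 46.8 TPM in M0 libraries. Its groups did not overlap, and it fell 1.26-fold (log2 fold change -0.32, SE 0.064, adjusted p = 0.00361 by limma). The ratio of Acaa2 to Acaa1a was 0.529, 0.588 and 0.512 in M2 libraries and 0.418, 0.395 and 0.402 in M0 libraries, again at the smallest exact permutation p of 0.1 (0.125 adjusted). Acaa1b, a close copy of Acaa1a with which reads may be shared, had 92 reads over the M2 libraries and 125 over the M0 libraries, against 2900 and 3340 for Acaa1a.

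All 3 genes of peroxisomal oxidation had a lower mean in M2, and 2 of them passed, where 23.7% of all tested genes fell. Acox3, an acyl-CoA oxidase that acts on branched chains, had 11.3, 11.1 and 8.95 TPM in M2 libraries and 17.2, 17.1 and 16.6 TPM in M0 libraries. The lowest M0 library stood well above the highest M2 library, and the gene fell 1.62-fold (log2 fold change -0.66, SE 0.093, adjusted p = 0.000654 by limma). Its span overlaps 5730 bases of 4931431C16Rik on the other strand, a gene at 1.08 TPM in M2 and 1.60 TPM in M0, and the sources used here do not say whether reads were counted by strand. Hsd17b4, the bifunctional hydratase and dehydrogenase between oxidase and thiolase, had 29.6, 31.6 and 30.7 TPM in M2 libraries and 32.2, 35.6 and 34.2 TPM in M0 libraries. These groups lay apart, and it did not pass (log2 fold change -0.15, SE 0.063, adjusted p = 0.0865 by limma). The 3 genes together held 76.5 ± 1.04 TPM in M2 and 95.6 ± 2.55 TPM in M0 (SD, n = 3 each).

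Double bonds of unsaturated fatty acids are moved or reduced by auxiliary enzymes, of which 1 of 4 passed. Decr2, the peroxisomal dienoyl-CoA reductase, had 14.4, 16.798 and 13.4 TPM in M2 libraries and 18.3, 17.5 and 18.019 TPM in M0 libraries. It fell 1.21-fold with groups apart (log2 fold change -0.26, SE 0.087, adjusted p = 0.0380 by limma). That call ended without M2 replicate 1 (adjusted p = 0.0980 by limma), M2 replicate 3 (0.0520), M0 replicate 1 (0.107), M0 replicate 2 (0.0826) or M0 replicate 3 (0.106). Decr1, the mitochondrial reductase, averaged 5.21 ± 0.349 TPM in M2 and 5.62 ± 0.0865 TPM in M0 (SD, n = 3 each) and did not pass. Eci1, a mitochondrial enoyl-CoA isomerase, averaged 56.6 ± 3.82 TPM in M2 and 51.3 ± 2.19 TPM in M0, and Eci2, an isomerase of peroxisomes and mitochondria, 28.1 ± 0.362 TPM in M2 and 29.5 ± 1.77 TPM in M0 (SD, n = 3 each), both with overlap and without a pass.

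**Figure D4:**
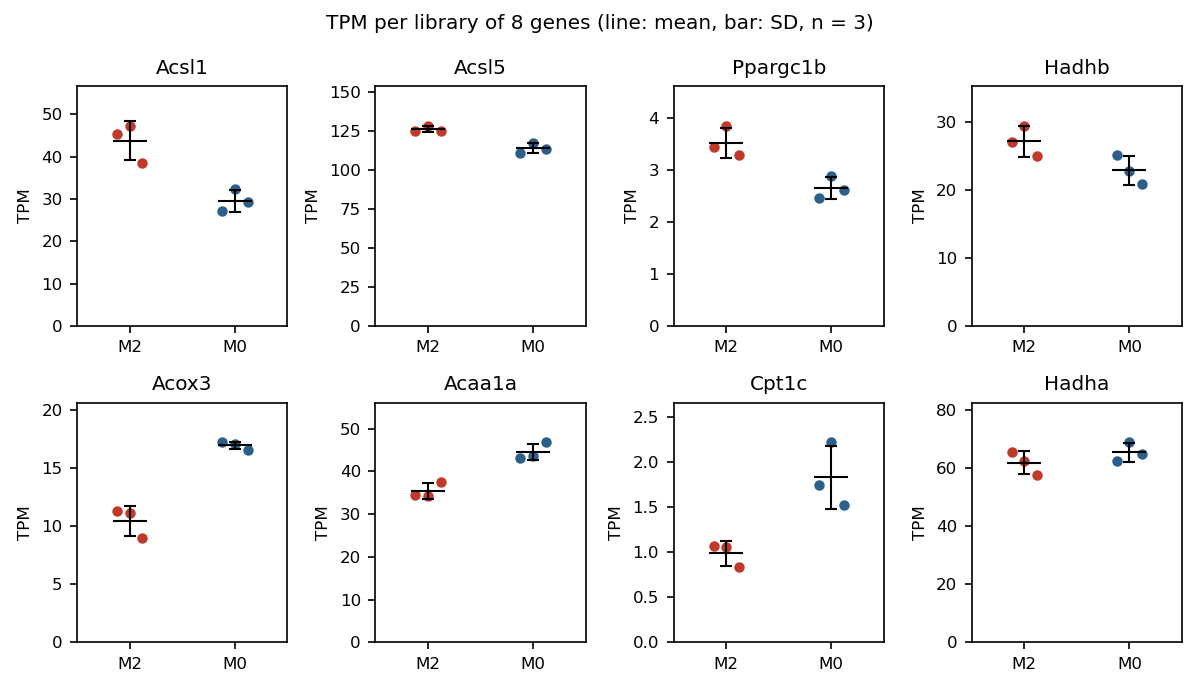
TPM per library of 8 genes, M2 left of M0, each axis starting at 0, with the mean as a line and the SD as a bar (n = 3). Acsl1, Acsl5 and Ppargc1b are higher in every M2 library and Acox3, Acaa1a and Cpt1c lower, while Hadhb and Hadha overlap between groups.

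The electron transfer flavoprotein takes electrons from the dehydrogenases to the respiratory chain, and none of its 3 genes passed. Etfa had 107, 117 and 122 TPM in M2 libraries and 101, 110.4 and 108 TPM in M0 libraries (log2 fold change 0.12, 95% interval -0.03 to 0.27). Etfb, its partner, had 109, 114 and 137 TPM in M2 libraries and 119.9, 119 and 121 TPM in M0 libraries, so that 2 of the M2 libraries lay under and 1 over every M0 library. Etfdh, the membrane dehydrogenase that hands the electrons to ubiquinone, averaged 31.3 ± 1.69 TPM in M2 and 30.2 ± 0.985 TPM in M0 (SD, n = 3 each). The adjusted p by limma was 0.168 for Etfa, 0.947 for Etfb and 0.560 for Etfdh.

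The odd value of Etfb belonged to M2 replicate 3. On log2(TPM + 1), M2 replicate 3 was above the mean of M2 replicates 1 and 2 for 11 of the 12 tested genes with transcript models under 2000 bases (median 0.14), and for 5 of the 23 longer ones (median -0.15). Deviation from the M2 mean and transcript length had a Spearman rho of -0.763 in M2 replicate 3 across the 35 genes, against 0.574 and 0.539 in M2 replicates 1 and 2, as a description of genes measured in the same libraries. Over all 11202 tested genes it was -0.609 in M2 replicate 3, 0.33 and 0.563 in M2 replicates 1 and 2, and -0.416, 0.437 and 0.032 in M0 replicates 1, 2 and 3, so that M0 libraries also held such trends. Deviations from a group mean cancel within the group for each gene, so the trends of its libraries depend on each other. A trend in 1 library pushes the others the opposite way, and these values alone cannot show which library departed. Without M2 replicate 3, 9 of the 11 called genes still passed, those lost being Cpt2 and Decr2, and Hadhb, Slc25a20, Acads and Hsd17b10 passed as well. Calls also became more frequent over all tested genes, of which 25.5% rose and 25.4% fell in that fit, against 20.1% and 23.7% with every library. In the same fit 5 of the 35 genes rose and 8 fell. How far fragment or RNA length made the trend with transcript length was not tested.

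**Figure D5:**
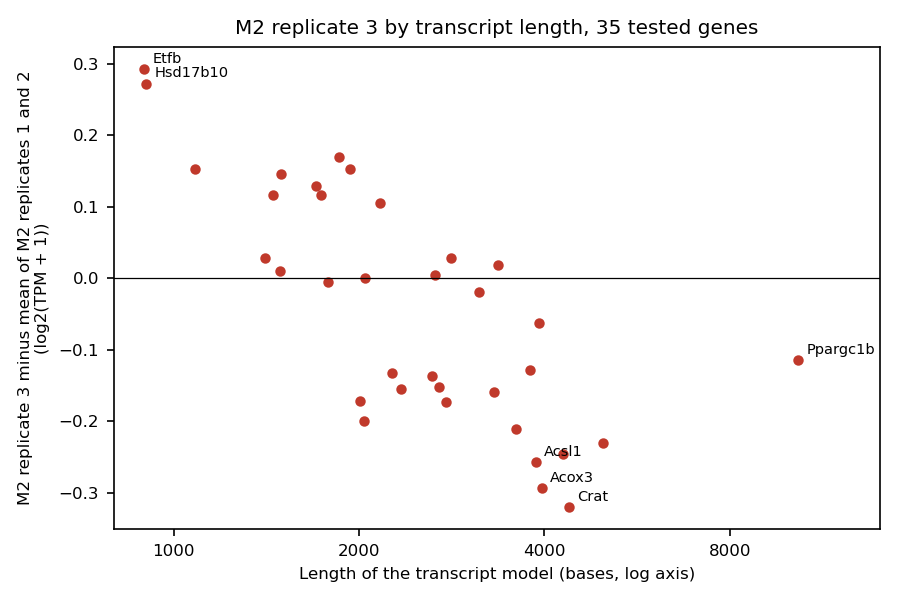
Difference of M2 replicate 3 from the mean of M2 replicates 1 and 2 on log2(TPM + 1), against the length of the transcript model on a log axis, for the 35 tested genes. The 2 shortest models, Etfb and Hsd17b10, lie highest, and Crat and Acox3, with models of 4377 and 3961 bases, lie lowest.

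Of the coactivators, PGC-1beta mRNA rose and PGC-1alpha mRNA was barely detected. Ppargc1b, the PGC-1beta gene, had 3.44, 3.84 and 3.28 TPM in M2 libraries and 2.46, 2.87 and 2.61 TPM in M0 libraries. The groups did not overlap, and it rose 1.33-fold (log2 fold change 0.31, SE 0.099, adjusted p = 0.0319 by limma). The call ended without M2 replicate 1 (adjusted p = 0.0636 by limma), M2 replicate 2 (0.104), M0 replicate 1 (0.108), M0 replicate 2 (0.0549) or M0 replicate 3 (0.0957). Ppargc1a had 7 reads over the 3 M2 libraries and 3 over the 3 M0 libraries, too few to compare.

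Of the 11 calls, 4, those of Acsl1, Acox3, Acaa1a and Cpt1c, held under every alternative in which the gene was tested, including each library left out. Among the settings of filter, variance trend, pseudocount and scale, calls were lost without the filter (Acat1, Cpt2, Decr2 and Ppargc1b), without the variance trend (Acat1 and Acsl5), with a pseudocount of 0.1 (Acat1) and with median-ratio scaling or the authors' log2-scale values (Acadl). The authors' deposited table calls 5 of the 36 genes higher in M2 at an adjusted p under 0.05, against 22.8% of the genes tested here that it also lists, and 4 lower, against 21.1%. The authors' deposited table shares all 4 rises given here and adds Hadhb (log2 fold change 0.29, adjusted p = 0.0161). It shares 4 of the 7 falls, those of Pnpla2, Cpt1c, Acox3 and Acaa1a, and puts the log2 fold change of Cpt1c at -0.83, that of Acox3 at -0.66 and that of Acsl1 at 0.61.

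Around the 36 genes, 73 others of fatty acid handling were listed in the file, and 55 passed the filter. Of these 8 rose and 19 fell, against 20.1% and 23.7% of all tested genes, with a median log2 fold change of -0.11. The rises include Pparg, which passed the filter through its M2 libraries alone. The falls include Acacb, which passed it through its M0 libraries alone. Abcd2 had the largest difference among the 55. This gene, which imports very long-chain acyl-CoA into peroxisomes, was at 9.95, 10.4 and 8.91 TPM in M2 libraries and 1.90, 2.04 and 2.12 TPM in M0 libraries, and rose 4.82-fold (log2 fold change 1.83, SE 0.092, adjusted p = 3.14e-06 by limma). Abcd4, a related protein that serves cobalamin export from lysosomes, fell to 7.63 ± 0.673 TPM in M2, against 15.4 ± 0.957 TPM in M0 (SD, n = 3 each). Of 13 tested peroxisomal genes in this list 2 rose and 5 fell, beside those same shares.

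Of 11 tested regulators, 3 rose and 3 fell, against 20.1% and 23.7% of all tested genes. Ppard, the PPAR-delta gene, fell to 3.49 ± 0.806 TPM in M2, against 11.6 ± 0.558 TPM in M0, and Pparg rose to 1.58 ± 0.137 TPM in M2, against 0.426 ± 0.0391 TPM in M0 (SD, n = 3 each), having passed the filter through its M2 libraries alone. Esrra, an orphan receptor that works with PGC-1 coactivators, rose to 44.5 ± 1.35 TPM in M2, against 34.1 ± 3.23 TPM in M0. Tfeb, a regulator of lysosomes and lipid breakdown, fell 1.32-fold. Ppara, the receptor best known for inducing fatty acid oxidation in liver, had 12 reads over the M2 libraries and 12 over the M0 libraries.

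Of 10 tested genes of uptake, binding and stored lipid, 1 rose and 5 fell, beside the same 20.1% and 23.7%. Plin2 and Plin3, which coat lipid droplets, fell 1.35-fold and 1.45-fold, to 139.8 ± 2.56 and 71.0 ± 4.91 TPM in M2, against 188 ± 2.38 and 103 ± 0.815 TPM in M0 (SD, n = 3 each). Lipe, hormone-sensitive lipase, fell 1.44-fold, alongside the fall of Pnpla2 given above. Among other enzymes that make acyl-CoA, Acsf2, of medium-chain acids, fell 1.87-fold and Acss2, of acetate, 1.44-fold. Mcee, an epimerase of propionate breakdown after odd-chain oxidation, fell 1.303-fold. For each of these 6 genes the highest M2 library lay under the lowest M0 library, with an adjusted p of 2.05e-04 to 0.00454 by limma. Each passed under every alternative in which it was tested, but they were named for their low adjusted p, so this is no separate support.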

How the data were processed

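The deposited table gave TPM per gene and library for 25124 genes, made by the authors with the transcript length and mm10 coordinates of each gene model. A second deposited table by the authors gave log2-scale values for 24421 genes, whose exact transform the sources used here do not state, with the authors' log2 fold changes, p-values and adjusted p-values. Per the submitters' processing notes, the tools were STAR 2.7.5a, bcl2fastq, DESeq2 and HOMER 4.11.1 and the build mm10, with no role stated. Strand use and the handling of reads matching several places are likewise unstated in the sources used here.

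From TPM times length, whole reads were recovered. In each library 100.0% of the 12730 to 14305 values checked lay within 0.1 of a whole number. Values with the most reads were left out of that check, and the size of 1 read was fitted on the same values. The 11202 genes that reached a TPM of 1 in 3 or more libraries were tested on log2(TPM + 1) with limma 3.58.1 in R 4.3.3, with a variance trend and Benjamini-Hochberg adjustment over all of them, at an adjusted p under 0.05. Ratios used exact two-sided permutation tests over libraries. Alternatives were a pseudocount of 0.1, no filter, a mean TPM of at least 5, median-ratio scaling, the authors' log2-scale values, limma-voom on the recovered reads, no variance trend, a replicate block, and each library left out. The limma code was tested on simulated data. The genes, their grouping by step and the list of other pathway genes were chosen with earlier results of these data known. All 36 genes were described. Of the other pathway genes, the text names the 12 with the lowest adjusted p among those called, plus Acaa1b, Acacb, Cpt1b and Ppara, which were chosen after their values were seen. Some items are not reported here. Motifs were searched in RefSeq promoter windows of 300 bases, which were not used for Acaa2, Acad9, Acat1, Crat, Decr1, Hsd17b4 and Ppargc1b.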

Additional observations from a re-analysis of the deposited data

How the results depend on the processing

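No result changed direction past the threshold under any alternative run. Of the 36 genes, 4 rose and 7 fell, against 20.1% and 23.7% of all tested genes. The number that rose was 2 without the filter, where 10.0% of all tested genes rose, and 2 without the variance trend, where 19.3% did. It was 6 with median-ratio scaling, the authors' log2-scale values or limma-voom, against 23.5%, 24.7% and 23.9% of all tested genes. With 1 library left out it ranged from 1 to 5, where 14.9% to 25.5% of all tested genes rose. It was 5 without M2 replicate 3, and 1 without M2 replicate 2, M0 replicate 2 or M0 replicate 3. The number that fell ranged from 3 to 8 with 1 library left out (3 without M0 replicate 2 or 3), where 16.5% to 25.4% of all tested genes fell. Among the other pathway genes, where 8 rose and 19 fell, the ranges were 5 to 8 and 10 to 17, and over all tested genes, where 2248 rose and 2651 fell, 1648 to 2844 and 1829 to 2829. Fewer libraries enter these fits. For the other settings the cause was not tested. Single results of the 36 genes gave the same call in 420 of 487 fits, lost it in 41, gained it in 15 and changed sign without a call in 11 (Acad11, Echs1 and Etfb). Results of the 12 named other genes held in 163 of 163 fits. Those genes were picked for the lowest adjusted p in the same data, which favours such holding. Their count therefore cannot be set against that of the 36 genes. With the replicate block, 3 of the 36 genes rose and 6 fell, where 2236 of all 11202 tested genes rose and 2634 fell. In that fit 8 of the 11 calls were shared, those lost being Acat1 (adjusted p = 0.0529 by limma), Acsl5 (0.0511) and Cpt2 (0.0672). Deviations of same-numbered libraries correlated at -0.0329, 0.211 and 0.0289, and not every library correlated best with its own number. M2 replicate 2 and M0 replicate 2 had length trends of the same sign, as did M2 replicate 3 and M0 replicate 1, which correlated at 0.166. These correlations may carry the length trends, so they cannot decide whether libraries were paired. Depth limits Ppargc1a and, in part, Cpt1c, which like Acad10 and Ppargc1b has no value at a mean TPM of at least 5.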
